A study of Mus musculus with 12 samples.

Results

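The acute phase, complement and coagulation genes are 49 genes chosen by name. They comprise 20 genes of acute phase proteins, 3 of fibrinogen chains, 11 of complement, 9 of coagulation and 6 of the cytokine signals that reach the hepatocyte. A gene was measured where a transcript cluster, the set of probes that reads 1 transcript, carried its symbol and no other, and its value was the cluster with the highest mean over the 12 arrays. This gave 46 of the 49 members, among 19938 genes measured the same way. Serpina3k, Serpina3m and C3 had no such cluster, and 2 members, Fga and Socs3, had more than 1.

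The samples were read on 12 Affymetrix arrays, 2 in each of 6 groups that are called here by their titles. Groups 6Y, 16Y and 42Y are listed in the series' design as T2D mice, and groups 6K, 42WKK and 1 (arrays 1-3 and 1-5) as control mice, while the sample records call 42Y control and 6K T2D. The methods name KK-Ay mice, which carry the lethal yellow allele of agouti on the KK background and become obese and diabetic, and KK mice without it, at 42 weeks. No treatment was named. No source used here gives the strain array by array, the strain of group 1, the unit of the 6 and the 16, the sex of the animals or whether the arrays are of different mice. The p-values therefore measure only the spread between these samples, which may be technical. The cluster of agouti, which the lethal yellow allele switches on throughout the body, read 6.78 to 7.06 on the 6 Y arrays and 5.20 to 5.51 on the 6 other arrays, on the log2 scale used throughout. By this cluster 42Y went with 6Y and 16Y, and 6K with 42WKK and group 1, as in the series' design.

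By the methods the tissue was liver, but the sample records give blood leukocytes and describe an enrichment of methylated promoters. Hepatocyte markers had array medians of 13.01 to 13.25, against 4.28 to 4.60 for T cell markers and 3.21 to 3.84 for B cell markers. In such bulk RNA, fewer cells of a type and less RNA per cell cannot be told apart.

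The acute phase response is the change in plasma proteins that follows infection, injury or chronic inflammation. Cytokines of the IL-6 and IL-1 families reach the hepatocyte, STAT3, C/EBP and NF-kB factors act on its genes, and it then secretes more serum amyloid A, orosomucoid and other proteins, while the feedback inhibitor SOCS3 damps the signal. The hepatocyte also supplies most complement components and clotting factors. Human obesity and T2D are known for modestly raised plasma levels of some acute phase proteins.

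**Figure D1:**
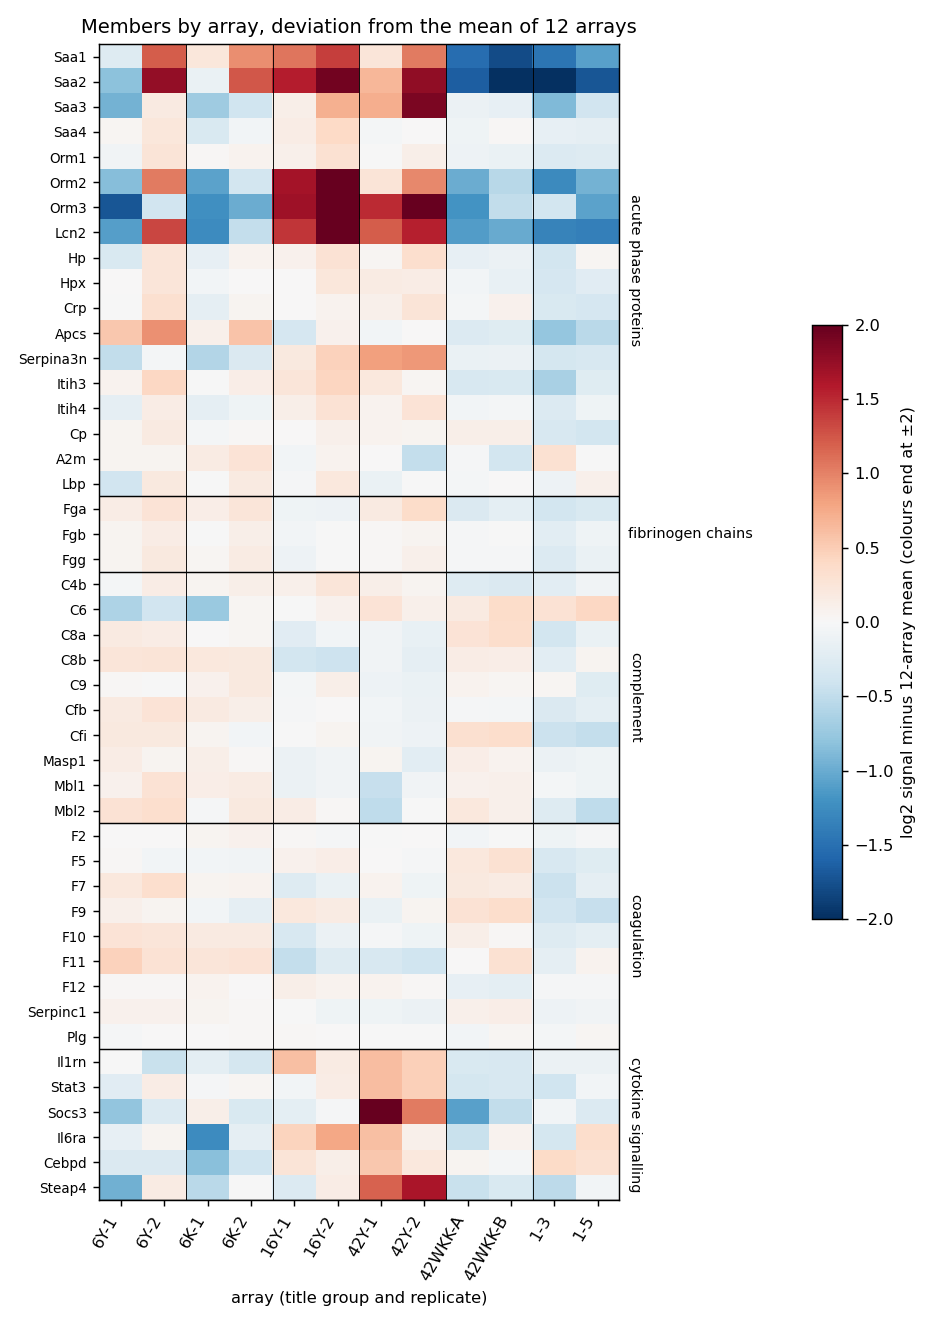
Each row is 1 of the 46 measured genes, grouped by role, and each column 1 of the 12 arrays; colour gives the log2 signal minus that gene's mean over the 12 arrays, and colours end at 2 in either direction. Saa2, Orm3, Lcn2, Orm2, Socs3 and Saa1 vary most, and Saa2 spans 4.57 between its lowest and its highest array, while Fgb, F2 and Plg hardly vary.

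The arrays differed most in a small part of these genes. The member means over 12 arrays lay between 4.47 and 13.2, and 40 of 46 members were at 9 or above, where the median of all 35556 clusters was 4.79; signal depends on the probes too, so it does not rank genes by amount. Only A2m, Il1rn and Cebpd had means under 6. The median standard deviation within a group was 0.132 for members, 0.160 for all clusters and 0.123 for clusters with a mean of at least 6.

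Pairs of arrays that share a title also differed, by amounts that varied with the gene. Cfi, which was called over the 6 groups, had a largest gap of 0.102. Lcn2, which passed no test, had a gap of 2.44 in 6Y. The largest gap within a pair was 2.59 for Saa2 in 6Y, and 7 of 46 members had a gap over 1 in that pair, against 3 in 42Y, 2 in 6K and 0 in each of the other groups. Of all clusters, 2.7% had such a gap in 6Y, 4.2% in 42Y and 3.2% in 6K. The shares were 2.7% in group 1, 2.6% in 16Y and 2.0% in 42WKK. The second array was the higher one for 18 of 18 acute phase genes in 6K, 17 in 6Y, 18 in 16Y and 14 in 42Y. It was so for 12 in group 1 (array 1-5) and 12 in 42WKK (array 42WKK-B). The same count over all clusters was not made. Array 6Y-2 also had the highest medians of the marker lists for Kupffer cells and macrophages (7.33), stellate cells (7.35), liver endothelial cells (8.35) and neutrophils (4.50), and the part of these in the gaps was not tested. Array 1-3 held the lowest value of 17 of the 46 members.

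In 42Y against 42WKK, 2 acute phase and 2 signalling genes rose. By limma, with Benjamini-Hochberg adjustment over all 35556 clusters, 4 members rose at an adjusted p under 0.05 (Orm3, Serpina3n, Socs3 and Stat3), where 0.934% of all clusters did, and 0 fell, where 0.920% did. Of clusters with a mean of at least 6, 3.83% passed in either direction. At an unadjusted p under 0.05 there were 24 of 46 members, 15 higher and 9 lower, where 17.3% of all clusters and 27.7% of clusters with a mean of at least 6 passed. Both 42Y arrays lay above both 42WKK arrays for 25 members, where 25.1% of all clusters did so, and below both for 15, where 22.7% did. The median difference was 0.12 over members and 0.02 over all clusters.

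The signs of the differences in this comparison varied with role, without a test between roles. Of 18 acute phase genes, 15 had positive differences (median 0.29), as did 3 of 3 fibrinogen chains and 6 of 6 signalling genes (median 0.87). Of 10 complement genes, 9 had negative differences (median -0.23), and of 9 coagulation genes, 7 did (median -0.18), but none of these 19 passed the test. Over all clusters 52.6% of differences were positive. The count of members called was 0 without array 42WKK-A, 42WKK-B or 42Y-1, 1 without 42Y-2, 2 without either 16Y array or either 6K array and 7 without either 6Y array. It was 2, Serpina3n and Socs3, when both 6K arrays, whose group the records give in opposite ways, were left out.

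In 6Y against 6K, no member passed the limma test (0 of 46, where 0.00281% of all clusters did), and 1 member, Saa4, did so at an unadjusted p under 0.05, where 5.28% of clusters did. Both 6Y arrays lay above both 6K arrays for 15 members (17.6% of all clusters) and below both for 3 (17.8%). The largest differences were 0.98 for Lcn2 (standard error 0.65), 0.81 for Orm2 (standard error 0.55) and 0.66 for Il6ra (standard error 0.38) among the higher, and -0.44 for Socs3, -0.19 for Lbp and -0.16 for A2m among the lower. The 6Y arrays themselves differed by 2.44 for Lcn2 and by 1.88 for Orm2, and differences near 1 in these genes were not detectable with 2 arrays a group. Without array 6Y-2 both had the other sign, at -0.24 for Lcn2 and -0.13 for Orm2. By role, 14 of 18 acute phase genes had positive differences (median 0.13), as did 3 of 3 fibrinogen chains, 7 of 10 complement genes (median 0.04), 6 of 9 coagulation genes (median 0.05) and 3 of 6 signalling genes. Acute phase genes and fibrinogen chains were thus mostly positive here as well, and the complement and coagulation genes were mostly positive where in 42Y against 42WKK they were mostly negative. Over all clusters 50.1% of differences were positive. No complement or coagulation gene had an unadjusted p under 0.05 in 6Y against 6K.

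Tested directly, the difference between these contrasts (42Y minus 42WKK, less 6Y minus 6K) called 0 of 46 members, where 0.143% of all clusters passed (1 member without array 42Y-2). At an unadjusted p under 0.05 there were 17 members, 10 with a higher and 7 with a lower value at 42, where 13.2% of clusters passed. The highest values were those of Saa2 at 3.12 (standard error 1.13), Socs3 at 2.91 (standard error 0.55) and Orm3 at 2.54 (standard error 0.64), and Socs3 came closest to the threshold (adjusted p = 0.097). On the lower side were Mbl2 at -0.65, F11 at -0.63 and Cfi at -0.62 (adjusted p = 0.11 for Cfi). It is therefore not shown that the effect differs between 42 and 6.

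**Figure D2:**
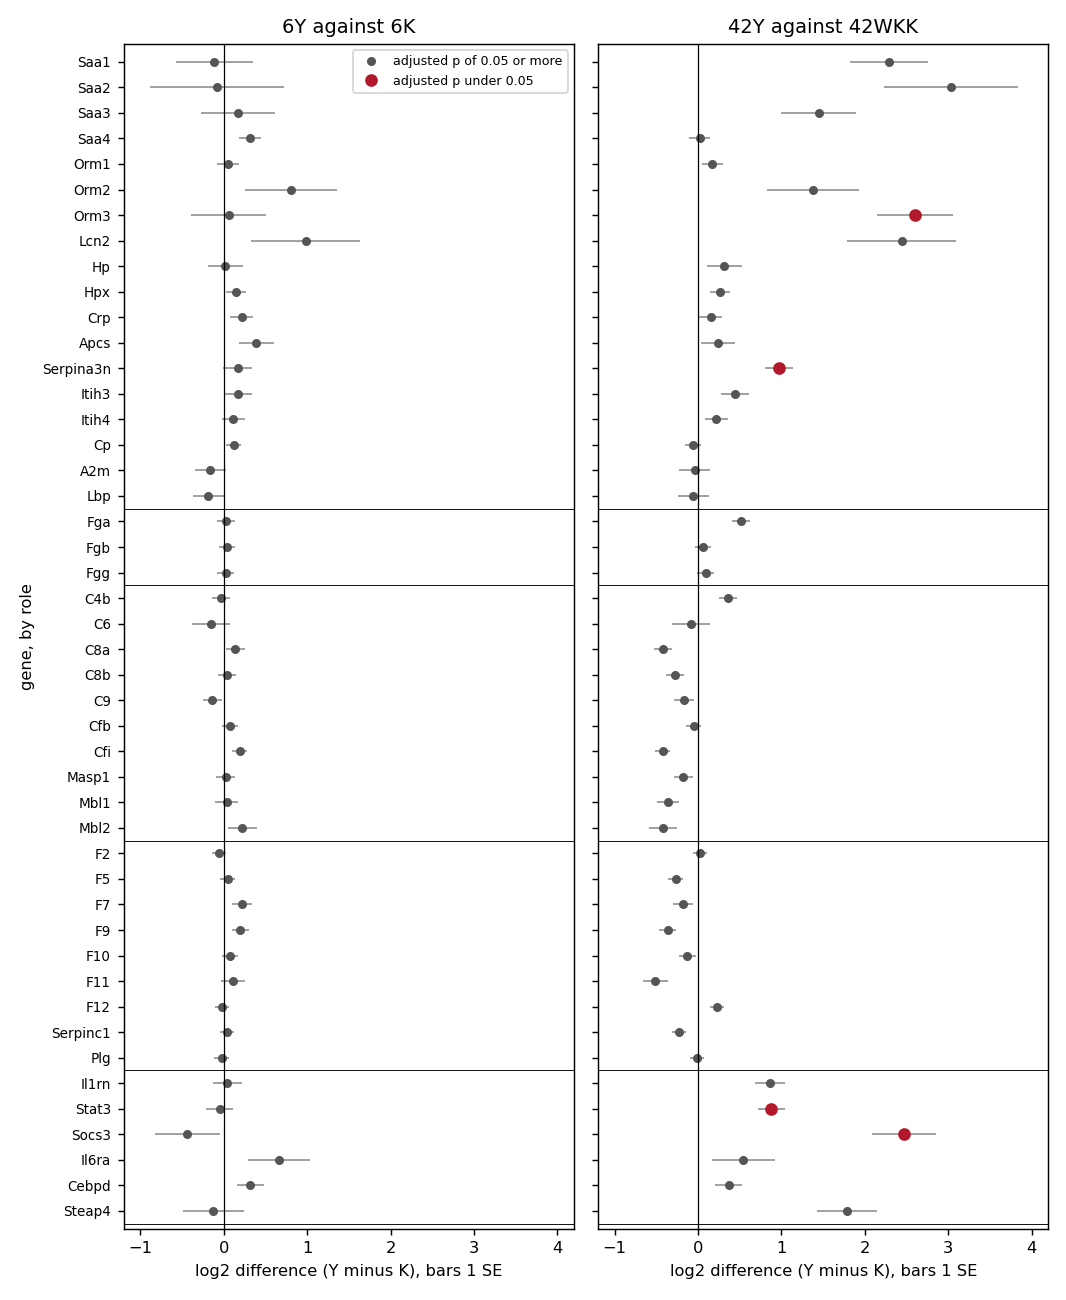
Points are the log2 differences of the 46 members in 6Y against 6K (left) and 42Y against 42WKK (right), with bars of 1 standard error from limma; red points passed an adjusted p of 0.05. At 42 the acute phase and signalling genes reach 3.03 (Saa2) while most complement and coagulation genes lie left of 0, and in 6Y against 6K the range is -0.44 to 0.98.

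Among the Y groups, those titled 16 and 42 differed from 6Y in a few members. In 16Y against 6Y, 1 member rose (Orm3; 0.582% of all clusters rose) and 2 fell (C8b and F11; 1.20% fell). In 42Y against 6Y, 4 rose (Orm3, Serpina3n, Socs3 and Steap4; 0.793% rose) and 1 fell (F11; 1.04% fell). Of clusters with a mean of at least 6, 3.79% passed in 16Y against 6Y and 3.33% in 42Y against 6Y, in either direction. In 42Y against 16Y, 0 of 46 passed, where 0.399% of clusters did, and 7 did at an unadjusted p under 0.05, where 13.9% did; without array 42Y-2, 1 member passed. These comparisons share arrays, and the 42Y arrays also serve in the comparison with 42WKK.

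The calls in this series rested on few arrays. In 16Y against 6Y, no member passed without array 6Y-1, 16Y-1, 16Y-2, 42WKK-A or 42WKK-B, and 1 did without 6Y-2, either 6K array or both. In 42Y against 6Y, no member passed without 6Y-1 or 42Y-1, 1 without 42Y-2, 2 without either array of 1, 16Y or 42WKK and 3 without the 6K arrays. Marker lists moved with both comparisons. In 16Y against 6Y, 4 of 10 liver endothelial markers (median -0.85) and 1 of 10 stellate cell markers (median -0.70) fell, and 3 of 10 clock genes that peak with Dbp rose (median 0.66). In 42Y against 6Y, 3 of 12 neutrophil markers (median 0.49) and 6 of 10 of those clock genes (median 1.41) rose, while 3 of 10 stellate cell markers (median -0.71) and 1 of 3 clock genes that peak with Arntl (median -0.29) fell. The part of any of these lists in the calls was not tested.

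In 42WKK against 6K, no member passed (0 of 46; 1.01% of all clusters did), and 13 did at an unadjusted p under 0.05, where 15.0% of clusters did; without either 6Y array, 1 member passed. Saa2 differed by -2.37 (standard error 0.80) and Saa1 by -2.24 (standard error 0.47, adjusted p = 0.068), followed by Socs3 at -0.70. Cebpd and C6 had the largest positive values, each 0.62, and Il6ra was at 0.52. With all 6 Y arrays set against the 6 other arrays, 1 member rose (Orm3; 0.129% of clusters rose) and 0 fell (0.0787% fell). Of clusters with a mean of at least 6, 0.492% passed in either direction. At an unadjusted p under 0.05 there were 25 of 46 members, 23 higher and 2 lower, where 12.3% of all clusters and 17.8% of clusters with a mean of at least 6 passed; 15 of the 23 were acute phase and 5 signalling genes. The call was lost when any 1 array other than 6Y-1 was left out. Without 6Y-1 there were 4 calls (Orm3, Saa1, Orm2 and Lcn2), without 6Y-2 there was 1 (Lcn2), and without any other array there were 0.

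Over the 6 groups together, a moderated F test in limma called 11 of 46 members, where 5.43% of all clusters and 11.9% of clusters with a mean of at least 6 passed. They were Saa1, Orm3, Serpina3n and Apcs among acute phase genes, Fga, the complement genes C8b and Cfi, the clotting factors F9 and F11, and Socs3 and Cebpd. With 1 array left out, 0 to 8 of the members passed, 0 of them without either 16Y array or 42WKK-A, 1 without 42WKK-B or either array of group 1, 2 without 6K-1, 5 without 6K-2 or 42Y-1, 7 without 6Y-1 or 42Y-2 and 8 without 6Y-2. The calls of Apcs, C8b and F11 were each lost when any 1 array was left out, with adjusted p-values up to 0.13.

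Of the 6 signalling genes, all but Il6ra had their highest group mean in 42Y. Socs3, the feedback inhibitor of STAT3, read 8.42 and 7.14 in 42Y, against 5.02 and 5.61 in 42WKK. In 6Y it read 5.31 and 5.83, in 16Y 5.91 and 6.08, in 6K 6.22 and 5.80 and in group 1 6.05 and 5.83. So both 42Y arrays lay above the other 10 arrays, and they differed between themselves by 1.28. Socs3 rose 5.54-fold in 42Y against 42WKK (log2 difference 2.47, standard error 0.39, adjusted p = 0.026) and 4.63-fold in 42Y against 6Y (2.21, adjusted p = 0.033). Without array 42Y-1 these folds were 3.56 and 2.98, and without 42Y-2 they were 8.61 and 7.21. The second cluster of Socs3, read at 6.32 and 5.39 in 42Y and at 4.89 and 5.08 in 42WKK, differed by 0.87 (standard error 0.26) and did not pass (adjusted p = 0.14). With the mean of both clusters the rise over 42WKK was 3.18-fold (adjusted p = 0.038), and the call against 6Y (2.80-fold, adjusted p = 0.053) and that over the 6 groups (adjusted p = 0.068) were lost. With 1 array left out, the first call was lost without 42WKK-A, 42WKK-B or 42Y-1 (highest adjusted p = 0.17) and the second in 9 of 12 fits, all but those without a 6K array or 42Y-2 (highest adjusted p = 0.16).

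Stat3, the transcription factor that IL-6 receptors activate, was also highest in 42Y, by a smaller amount. It read 10.02 and 9.87 in 42Y, against 9.05 and 9.09 in 42WKK. The other 8 arrays lay between 9.01 and 9.56, below both 42Y arrays. The rise over 42WKK was 1.84-fold (0.88, standard error 0.16, adjusted p = 0.040), and over 6Y the difference of 0.58 did not pass. The call held in 4 of 12 fits with 1 array left out, those without an array of 6Y or group 1 (highest adjusted p of the rest 0.205).

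Steap4, a metalloreductase that inflammatory cytokines induce, read 11.19 and 11.64 in 42Y, against 9.57 and 9.70 in 42WKK and 9.06 and 10.17 in 6Y. The 16Y arrays were at 9.73 and 10.15, the 6K arrays at 9.47 and 10.00 and those of group 1 at 9.48 and 9.96, so both 42Y arrays again stood above the rest. It rose in 42Y against 6Y (1.80, standard error 0.36, adjusted p = 0.0495), and the difference from 42WKK was of like size (1.78, adjusted p = 0.051) but missed the threshold. The call against 6Y held only without 6Y-2 (adjusted p = 0.037), and the fits without any other array gave adjusted p-values up to 0.175.

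Il1rn, the antagonist of the IL-1 receptor, had a low signal that was highest in 16Y and 42Y. It read 4.79 and 4.35 in 6Y, 5.39 and 4.95 in 16Y and 5.41 and 5.27 in 42Y. The remaining 6 arrays lay between 4.44 and 4.68, below both 16Y and both 42Y arrays. Its difference in 42Y against 42WKK was 0.86 (standard error 0.18, adjusted p = 0.053).

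Cebpd and Il6ra showed other patterns. Cebpd, a C/EBP factor of the acute phase response, read 5.74 and 5.42 in 42Y and 5.47 and 5.32 in 16Y, close to the arrays of group 1 at 5.58 and 5.50. It read 4.91 on both 6Y arrays and 4.37 and 4.81 in 6K, and these 4 were lower than the 42WKK arrays at 5.26 and 5.16. Group means ranged over 0.99 (adjusted p = 0.037 over the 6 groups). Il6ra, the chain of the IL-6 receptor that binds the cytokine, ranged between 8.23 (6K-1) and 10.26 (16Y-2), and its pairs differed by up to 1.07, so no group stood apart from the rest.

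**Figure D3:**
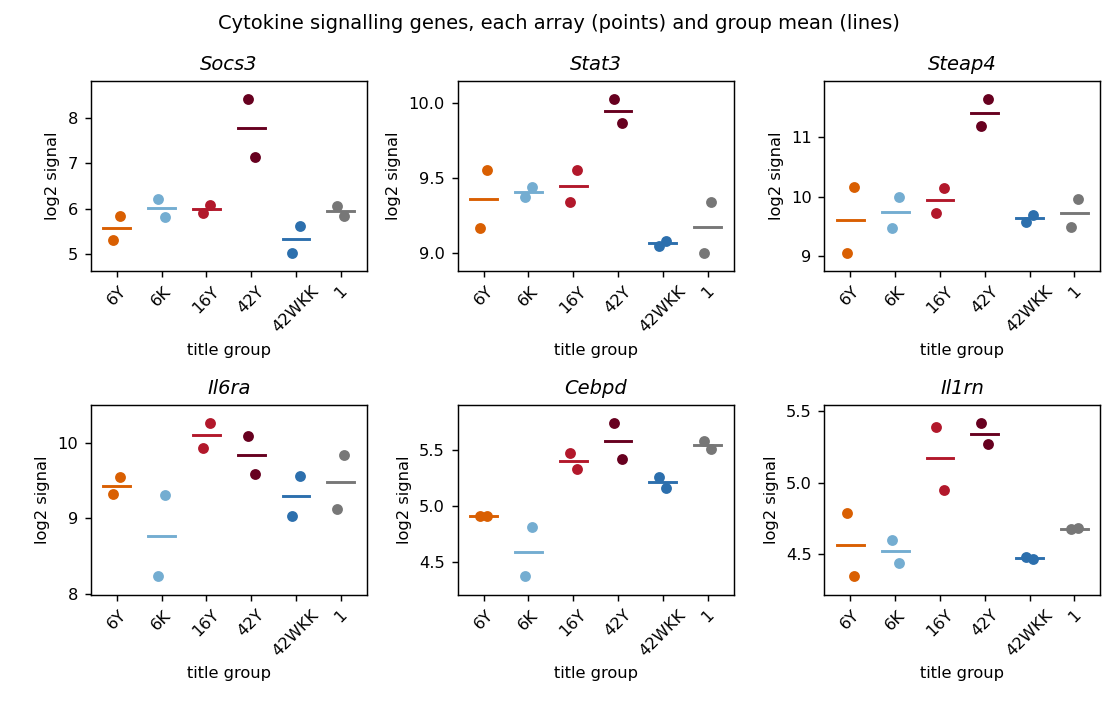
Points are the log2 signals of 6 signalling genes on each of the 12 arrays, 2 points a group, and short lines are group means; each panel has its own vertical scale, which does not start at 0. For Socs3, Stat3 and Steap4 both 42Y points lie above all other points.

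Among acute phase proteins, Orm3 separated 16Y and 42Y from all other arrays. Orm3, an orosomucoid or alpha-1-acid glycoprotein, read 8.33 and 8.87 in 16Y and 8.12 and 8.66 in 42Y. It read 4.91 and 6.25 in 6Y, 5.41 and 5.63 in 6K, 5.44 and 6.14 in 42WKK and 6.26 and 5.56 in group 1. The 4 arrays of 16Y and 42Y thus lay above the other 8, with no overlap. Orm3 rose 8.09-fold in 16Y against 6Y (3.02, standard error 0.45, adjusted p = 0.031), 7.01-fold in 42Y against 6Y (2.81, adjusted p = 0.025) and 6.06-fold in 42Y against 42WKK (2.60, adjusted p = 0.033). Without array 6Y-1 the rises over 6Y were 5.10-fold in 16Y and 4.42-fold in 42Y, and without 6Y-2 they were 12.9-fold and 11.1-fold. Over all Y arrays against the others the rise was 1.78 (standard error 0.26, adjusted p = 0.048). Array 6Y-2 lay among the others and 6Y-1 below all of them. With 1 array left out, the call in 16Y against 6Y was lost without 6Y-1 or any 16Y or 42WKK array (highest adjusted p = 0.13), that in 42Y against 6Y without 6Y-1 or a 42Y array (0.097), and that in 42Y against 42WKK without any array of 42Y, 42WKK, 16Y or 6K (0.199).

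Its paralogs moved less evenly. Orm2 read 8.93 and 10.81 in 6Y, 11.44 and 11.93 in 16Y and 10.03 and 10.73 in 42Y. The 6 other arrays lay between 8.50 and 9.42, below all Y arrays but 6Y-1. The differences were 1.81 in 16Y against 6Y, 1.38 in 42Y against 42WKK and -1.30 in 42Y against 16Y, each with a standard error of 0.55, and none passed. Orm1 kept between 12.00 and 12.58 on all arrays. Probes of such close paralogs can bind each other's transcripts, so the share of each gene is uncertain, and this holds for Saa1 and Saa2, the Serpina3 family and C4a and C4b as well.

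Serpina3n, a secreted inhibitor of serine proteases, was highest in 42Y. It read 12.67 and 12.72 in 42Y and 11.72 and 11.73 in 42WKK. The 16Y arrays lay between, at 12.04 and 12.31, over 11.35 and 11.81 in 6Y, 11.27 and 11.56 in 6K and 11.50 and 11.53 in group 1. All 4 arrays of 16Y and 42Y were thus above the other 8. It rose 1.96-fold in 42Y against 42WKK (0.97, standard error 0.17, adjusted p = 0.033) and 2.16-fold in 42Y against 6Y (1.11, adjusted p = 0.020). The first call was lost without any 1 array of 42Y, 42WKK or group 1 (highest adjusted p = 0.19), and the second without 6Y-1 or a 42Y array (0.092).

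The serum amyloid A genes Saa1 and Saa2, whose products ride on high density lipoprotein, were lowest in 42WKK and group 1. Saa2 read 9.64 and 12.22 in 6Y, 12.03 and 12.39 in 16Y and 11.12 and 12.22 in 42Y. It read 10.32 and 11.70 in 6K, 8.81 and 8.47 in 42WKK and 7.82 and 8.75 in group 1. All 8 arrays of the Y and 6K groups were therefore above the 4 others, but pairs differed by up to 2.59, and the difference of 3.03 in 42Y against 42WKK, 8.19-fold, did not pass (standard error 0.80, adjusted p = 0.11).

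Saa1 read 9.80 and 11.28 in 6Y, 11.14 and 11.45 in 16Y and 10.31 and 11.11 in 42Y. It read 10.30 and 11.01 in 6K, 8.55 and 8.28 in 42WKK and 8.61 and 8.98 in group 1, so the same 8 arrays lay above the same 4. Its group means ranged over 2.88 (adjusted p = 0.034 over the 6 groups), and in 42Y against 42WKK it was 2.29 higher (standard error 0.47, adjusted p = 0.051), just outside the threshold. The 6K arrays, which the records place in opposite groups, thus sat with the Y arrays for Saa1 and Saa2, and with the other control arrays for Orm3 and Lcn2.

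Saa3, which cells other than hepatocytes also make, reached 7.04 and 8.21 in 42Y, against 6.20 and 6.16 in 42WKK. It read 5.37 and 6.50 in 6Y, 6.44 and 7.03 in 16Y, 5.60 and 5.92 in 6K and 5.45 and 5.94 in group 1. The differences of 1.45 from 42WKK (standard error 0.45) and 1.69 from 6Y did not pass. The constitutive member Saa4 kept between 12.18 and 12.88.

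Lcn2, lipocalin 2, which binds bacterial siderophores, read 9.54 and 11.99 in 6Y, 12.08 and 12.78 in 16Y and 11.85 and 12.20 in 42Y. The 6 other arrays lay between 9.27 and 10.17. Thus 5 of 6 Y arrays lay above every other array, and 6Y-1 did not. The difference of 2.44 in 42Y against 42WKK had a standard error of 0.65 and an adjusted p of 0.11, and that of 2.19 over all Y arrays an adjusted p of 0.079. Neutrophils also make Lcn2. The 12 neutrophil markers had array medians of 4.05 to 4.50 on Y arrays and 3.84 to 4.05 on the others, 1 of 12 passed as higher in 42Y against 42WKK, and their part in the Lcn2 values was not tested.

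**Figure D4:**
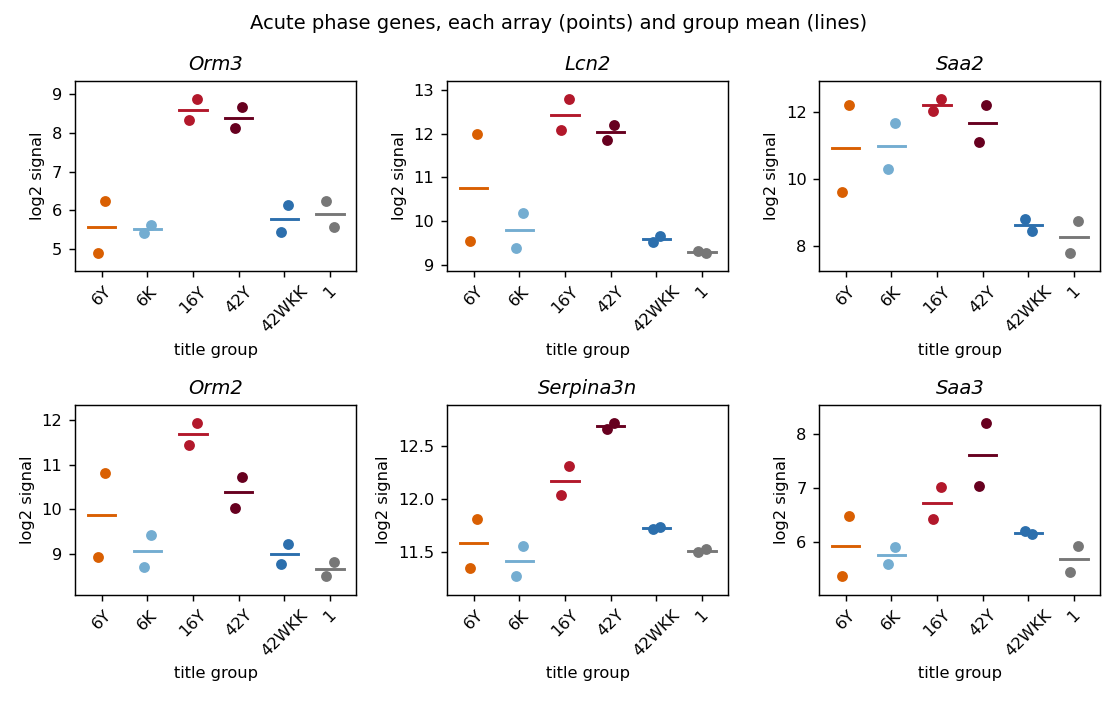
Points are the log2 signals of 6 acute phase genes on each of the 12 arrays, 2 points a group, and short lines are group means; each panel has its own vertical scale, which does not start at 0. Orm3 separates 16Y and 42Y from all other arrays, Saa2 is lowest in 42WKK and group 1, and the 6Y points lie 2.44 apart for Lcn2 and 2.59 for Saa2.

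The pentraxin Apcs, serum amyloid P, did not follow the other acute phase genes. It read 11.18 and 11.56 in 6Y and 10.74 and 11.21 in 6K. It read 10.31 and 10.73 in 16Y, 10.59 and 10.64 in 42Y, 10.36 and 10.40 in 42WKK and 9.87 and 10.11 in group 1. The 4 arrays titled 6 were thus its highest, and group means ranged over 1.38 (adjusted p = 0.039 over the 6 groups). It had the largest negative difference of any member in 16Y against 6Y (-0.85, standard error 0.20, adjusted p = 0.076) and in 42Y against 6Y (-0.75).

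The remaining acute phase genes had no call in any comparison. Haptoglobin (Hp), which binds free hemoglobin, kept between 12.61 and 13.30, and C-reactive protein (Crp), a minor reactant in the mouse, between 10.29 and 10.95. In 42Y against 42WKK the arrays did not overlap for either gene, both 42Y values being the higher. These differences, 0.31 and 0.15, did not pass. Itih3, a heavy chain of the inter-alpha-trypsin inhibitors, spanned 1.08 over the 12 arrays, with 11.60 and 11.43 in 42Y and 11.06 and 11.08 in 42WKK (0.45). Hemopexin (Hpx), Itih4, ceruloplasmin (Cp), Lbp and A2m, the last near the median signal of all clusters, spanned 0.54 to 0.78 and had differences between -0.06 and 0.26 in 42Y against 42WKK.

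Of the fibrinogen chains, only Fga passed a test. Fga, which encodes the alpha chain, read 11.85 and 12.04 in 42Y, against 11.39 and 11.48 in 42WKK. It read 11.83 and 11.95 in 6Y, 11.59 and 11.57 in 16Y, 11.81 and 11.91 in 6K and 11.31 and 11.36 in group 1, so 42WKK and group 1 were the lowest, as for Saa1. Its group means ranged over 0.61 (adjusted p = 0.035 over the 6 groups), and 42Y differed from 42WKK by 0.51 (standard error 0.10, adjusted p = 0.052). With the mean of its 2 clusters the range was 0.84 (adjusted p = 0.019), and 42Y against 42WKK gave 0.70, which passed (adjusted p = 0.023). Fgb and Fgg, the partner chains of the same molecule, ranged between 12.84 and 13.19 and between 12.87 and 13.34, and differed by 0.05 and 0.09 in that comparison.

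Promoter sequence from RefSeq (mouse build GRCm38.p6) was read for 37 of the 49 members. The windows ran from 250 bases before to 50 after the start of each gene, 40 windows in all. The letters TTGCNNAA, which C/EBP factors can bind, were searched on both strands and stood in 17 of the 40 windows (42.5%), against 10.8% of all 32851 windows. The STAT letters TTCCNGGAA stood in 2 of 40, those of Fga and Steap4 (5.0%, against 1.15%), and the NF-kB letters GGACTTTCC in 0 (against 0.344%). A match is a run of letters and not a site in use. Below are the 250 bases before the start for 5 genes called in the comparisons, 5′ to 3′ on the gene's strand, with C/EBP and STAT letters in capitals, to show that genes called as higher differ in whether they hold them.
Orm3, chr4:63355908-63356157, plus strand: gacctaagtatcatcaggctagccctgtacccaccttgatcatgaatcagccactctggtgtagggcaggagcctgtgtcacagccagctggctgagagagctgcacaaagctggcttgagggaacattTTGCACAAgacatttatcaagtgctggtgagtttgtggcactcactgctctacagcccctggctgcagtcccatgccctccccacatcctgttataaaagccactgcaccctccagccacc
Serpina3n, chr12:104406458-104406707, plus strand: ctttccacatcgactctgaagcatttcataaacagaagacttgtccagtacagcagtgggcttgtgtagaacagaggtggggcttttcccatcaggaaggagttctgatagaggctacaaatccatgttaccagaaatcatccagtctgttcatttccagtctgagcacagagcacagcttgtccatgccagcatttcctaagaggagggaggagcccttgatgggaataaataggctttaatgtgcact
Socs3, chr11:117969367-117969616, minus strand: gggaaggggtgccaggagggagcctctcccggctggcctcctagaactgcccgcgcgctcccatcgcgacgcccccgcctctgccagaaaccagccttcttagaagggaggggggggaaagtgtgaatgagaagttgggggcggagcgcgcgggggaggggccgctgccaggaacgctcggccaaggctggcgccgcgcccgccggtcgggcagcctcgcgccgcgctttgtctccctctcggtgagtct
Steap4, chr5:7960222-7960471, plus strand: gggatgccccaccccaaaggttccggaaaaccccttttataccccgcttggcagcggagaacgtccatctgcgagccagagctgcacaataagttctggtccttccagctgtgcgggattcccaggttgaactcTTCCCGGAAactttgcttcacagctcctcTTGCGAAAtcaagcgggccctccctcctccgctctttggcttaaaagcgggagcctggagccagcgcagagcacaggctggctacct
F11, chr8:45262032-45262281, minus strand: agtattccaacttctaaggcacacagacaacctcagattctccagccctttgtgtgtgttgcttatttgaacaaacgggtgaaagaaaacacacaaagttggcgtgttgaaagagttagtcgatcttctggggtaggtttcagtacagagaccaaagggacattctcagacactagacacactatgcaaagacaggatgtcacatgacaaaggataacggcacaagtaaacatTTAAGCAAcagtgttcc

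Orm3 holds the C/EBP letters at position -121 from the start, Steap4 the STAT letters at -116 and the C/EBP letters at -87, and F11, which fell, the C/EBP letters at -17, whereas the windows of Serpina3n and Socs3 hold none of the 3 motifs. For the paralogs and some other genes with a match, shorter stretches around it show how far the letters are shared, with the match in capitals. These stretches were chosen after the values of the genes were seen. Of the genes that varied most over the arrays (Saa2, Orm3, Lcn2, Orm2, Socs3 and Saa1), all but Socs3 hold the C/EBP letters. These letters also stood in the windows of genes that varied little, such as Hpx, Fgb and C9. They were absent from those of Il6ra and Apcs, which varied more than these 3. Whether a match goes with variation was not tested.
Orm2, chromosome 4, C/EBP: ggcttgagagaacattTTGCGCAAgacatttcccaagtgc
Saa1, chromosome 7, C/EBP: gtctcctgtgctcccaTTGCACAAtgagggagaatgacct
Saa2, chromosome 7, C/EBP: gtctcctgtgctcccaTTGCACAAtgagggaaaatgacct
Lcn2, chromosome 2, C/EBP: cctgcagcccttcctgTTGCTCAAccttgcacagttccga
Fga, chromosome 3, STAT: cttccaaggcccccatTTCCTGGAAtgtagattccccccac
Fga, chromosome 3, C/EBP: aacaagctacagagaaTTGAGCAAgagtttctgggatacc

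The windows of Saa1 and Saa2 were identical at 95.3% of aligned positions and those of Orm2 and Orm3 at 86.2%. Saa1 and Saa2 carry the same 8 letters at the match, and Orm2 and Orm3 each hold a match at nearly the same place.

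Of the complement genes, C8b fell in 16Y against 6Y, and none passed in any comparison of 42Y. C8b, a chain of the membrane attack complex, read 11.76 and 11.78 in 6Y, 11.16 and 11.12 in 16Y and 11.46 and 11.34 in 42Y. It read 11.74 and 11.72 in 6K, 11.68 and 11.67 in 42WKK and 11.32 and 11.58 in group 1, so the 16Y arrays were its lowest. C8b fell in 16Y against 6Y (-0.63, standard error 0.11, adjusted p = 0.036), to 0.647 of its 6Y signal, a call that held only in the 4 fits without an array of 42Y or group 1 (highest adjusted p of the rest 0.15). Its partner C8a differed by -0.31 there and by -0.42 in 42Y against 42WKK (adjusted p = 0.10), and C9, which completes the pore, kept between 11.83 and 12.27.

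Cfi, the protease that inactivates C3b and C4b, was highest in 42WKK. It read 11.66 and 11.62 in 42Y, against 12.05 and 12.08 in 42WKK. It read 11.92 and 11.93 in 6Y, 11.72 and 11.78 in 16Y, 11.78 and 11.68 in 6K and 11.31 and 11.25 in group 1, and the arrays of each pair lay within 0.102 of each other. The F test over the 6 groups passed (adjusted p = 0.021), and 42Y against 42WKK gave -0.42 (standard error 0.09, adjusted p = 0.056).

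The recognition proteins of the lectin pathway had negative differences in 42Y that did not pass. Mbl2, a mannose-binding lectin, read 9.43 and 9.93 in 42Y, against 10.16 and 10.05 in 42WKK and 10.23 and 10.29 in 6Y. Both 42Y arrays lay below both arrays of either group, with differences of -0.42 and -0.58 (standard error 0.17 each). C4b, of the classical and lectin pathways, ran the other way, at 11.59 and 11.53 in 42Y and 11.21 and 11.18 in 42WKK (0.36, adjusted p = 0.14). C6 of the membrane attack complex was lowest on 3 of the 4 arrays titled 6, at 9.44 and 9.67 in 6Y and 9.31 and 10.10 in 6K, while the other 8 arrays lay between 10.05 and 10.47.

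Of the clotting factors, F11 changed most. F11, a protease of the contact pathway, read 9.56 and 9.38 in 6Y, 8.61 and 8.83 in 16Y and 8.77 and 8.69 in 42Y. It read 9.34 and 9.36 in 6K, 9.09 and 9.39 in 42WKK and 8.91 and 9.16 in group 1, so the 4 arrays of 16Y and 42Y were its lowest. F11 fell in 16Y against 6Y (-0.75, standard error 0.14, adjusted p = 0.046) and in 42Y against 6Y (-0.73, adjusted p = 0.046). In 42Y against 42WKK the difference was -0.51 (adjusted p = 0.13). Each of these calls was lost when any 1 array was left out, with adjusted p-values of 0.056 to 0.22 for the first and 0.059 to 0.205 for the second.

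F9, whose deficiency causes hemophilia B, differed between groups in another order. It read 10.14 and 10.10 in 6Y, 10.25 and 10.21 in 16Y and 9.91 and 10.09 in 42Y. It read 9.99 and 9.86 in 6K, 10.34 and 10.39 in 42WKK, the highest, and 9.66 and 9.58 in group 1, the lowest. The range of group means was 0.75 (adjusted p = 0.032 over the 6 groups), and 42Y against 42WKK gave -0.36 (standard error 0.10, adjusted p = 0.12). Prothrombin (F2) kept between 11.93 and 12.09 and plasminogen (Plg), the precursor of the enzyme that dissolves clots, between 12.49 and 12.58, the smallest ranges of group means among members (0.12 and 0.03).

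**Figure D5:**
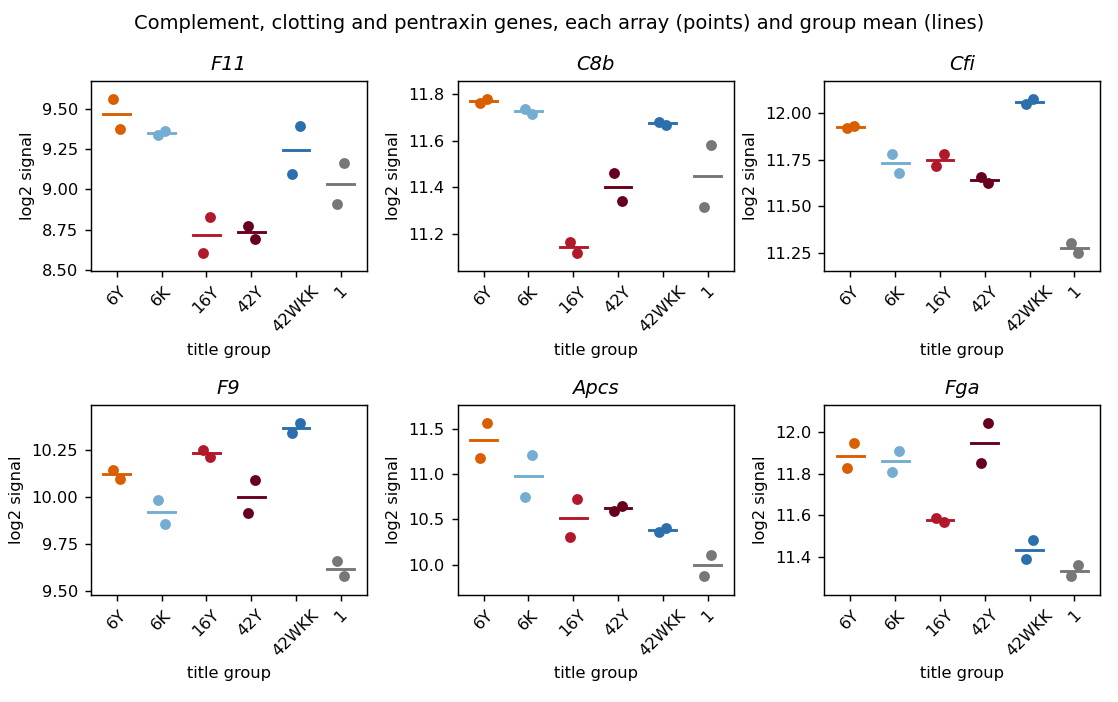
Points are the log2 signals of 6 genes called over the 6 groups on each of the 12 arrays, 2 points a group, and short lines are group means; each panel has its own vertical scale, which does not start at 0. F11 is lowest in 16Y and 42Y, C8b in 16Y and Cfi in group 1, Apcs is highest on the arrays titled 6, and Fga is lowest in 42WKK and group 1.

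Of a wider list of 28 measured cytokine signalling genes, 4 rose in 42Y against 42WKK, where 0.934% of all clusters did, and 1 fell, where 0.920% did. The other 23 did not pass, and the median difference was 0.31. No call of this or the other wider lists was tried with an array left out or under the other alternatives. Bcl3, a nuclear partner of NF-kB, read 9.77 and 9.35 in 42Y, against 7.10 and 7.02 in 42WKK and 7.03 to 7.73 on the 8 other arrays. It rose by 2.50 (standard error 0.26, adjusted p = 0.0055), so both 42Y arrays were clear of the rest. Nfkbiz, another such partner, rose by 1.47 (adjusted p = 0.0032), Tnfrsf1a, a TNF receptor, by 1.06 (adjusted p = 0.037) and Cebpa, the C/EBP factor of resting hepatocytes, by 0.93 (adjusted p = 0.020). Il22ra1, a chain of the IL-22 receptor, fell by 0.94 (adjusted p = 0.011). Cebpa was lowest in 42WKK, at 7.80 and 8.02, while 42Y, at 8.96 and 8.73, was near 6K, at 8.98 and 8.79. It was also called lower in 42WKK against 6K (-0.97, adjusted p = 0.022).

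Against 6Y, the same list had 2 genes higher in 42Y, Nfkbiz (1.54) and Bcl3 (2.28), where 0.793% of all clusters rose, and 1 lower, Il22ra1 (-0.88), where 1.04% fell. In 16Y against 6Y, Nfkbiz alone rose (0.75, adjusted p = 0.038), where 0.582% of clusters did. In 42Y against 16Y, Bcl3 rose (2.17) and Il22ra1 fell (-0.77), where 0.399% of clusters passed in either direction. In 6Y against 6K, 0 of 28 passed.

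Of the wider lists of plasma proteins, 3 genes passed in 42Y against 42WKK, where 0.934% of all clusters rose and 0.920% fell. Of 22 other acute phase plasma proteins, 1 rose, Cd14, a co-receptor for lipopolysaccharide that macrophages also make, at 6.29 and 6.17 in 42Y and 4.46 and 4.82 in 42WKK (1.59, adjusted p = 0.0095). The Kupffer cell and macrophage markers had array medians of 6.95 and 6.76 in 42Y and 6.47 and 6.60 in 42WKK, and their part in the Cd14 values was not tested. Of 25 other complement genes, C4a rose (0.87, adjusted p = 0.030) and C1s1, a protease of the C1 complex, fell (-0.50, adjusted p = 0.043). Of 22 other coagulation and fibrinolysis genes, none passed. C1s1 was highest in 42WKK, at 10.84 and 10.76. It read 10.31 and 10.30 in 42Y, within the range of all other arrays, 10.16 to 10.37. It was also called higher in 42WKK against 6K (0.56, adjusted p = 0.040).

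Other features also differed between 42Y and 42WKK. Clock genes that peak with Dbp minus those that peak with Arntl gave median differences of -1.37 and -0.54 in 42Y, against -1.82 and -1.77 in 42WKK, and 5 of 10 genes of the Dbp list rose in that comparison. Small nuclear and nucleolar RNA clusters had medians of 7.11 and 7.78 in 42Y, against 6.82 and 6.84 in 42WKK. All other arrays lay between 6.90 and 7.62, so 42Y-2 was above them and 42Y-1 among them. The part of either in the signalling and acute phase values was not tested.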

How the data were processed

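The authors deposited log2 expression values per transcript cluster, made with Affymetrix Expression Console (named in the submitters' processing notes) and, per the methods, robust multichip analysis (sketch). Software version and genome build are not given in the sources used here. The methods name an exon array, while the cluster identifiers are those of the mouse gene array. All columns of the file were used.

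Group means were fitted in limma 3.58.1 (R 4.3.3; lmFit, eBayes without trend) over 12 arrays and 35556 clusters. Calls are Benjamini-Hochberg adjusted p under 0.05. Gene symbols came from the platform annotation, 1 symbol for 21789 clusters, several for 1621 and none for 12146. Members, lists and the rule for named genes (every called member, a set of listed genes, and the 3 largest differences in each direction) were chosen with earlier results of these data known. No p was adjusted over the list alone. The fit was tested on simulated data with known changes and independent noise for each cluster and array. Deviations that same-numbered arrays share over the members, given below, were not simulated. Promoter windows were searched in Python 3.11.15 and aligned with Biopython 1.88. There is no read depth to report for arrays, and precision is limited by how many there are. Alternatives tried were normalization, low signals, variance trend, cluster choice, arrays left out, a replicate block and the ANOVA of the methods.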

Additional observations from a re-analysis of the deposited data

How the results depend on the processing

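Of 506 values of the called members under the alternatives, 248 kept their call, 258 lost it and 0 had the other sign. The kept calls include the ANOVA of the methods before adjustment, judged at an unadjusted p under 0.05. Many values could not take the other sign. The range over the 6 groups is never negative. A variance trend, a replicate block, fewer clusters or the loss of an array outside the compared groups leaves a difference as it was. These settings also enter the next count. Over all 46 members and the 8 differences, 173 of 7842 values had the other sign, none of them of a member at an unadjusted p under 0.05; the largest such difference was that of Saa2 in 16Y against 6Y (1.28, and -0.01 without 6Y-1). The counts of members called, in the order 42Y against 42WKK, 6Y against 6K, 16Y against 6Y, 42Y against 16Y, 42Y against 6Y, 42WKK against 6K, all Y arrays against the others, the difference of differences and the 6 groups, were 4, 0, 3, 0, 5, 0, 1, 0 and 11. With 1 array left out they ranged over 0 to 7, 0 to 0, 0 to 2, 0 to 1, 0 to 4, 0 to 1, 0 to 4, 0 to 1 and 0 to 8. With clusters of mean log2 of at least 6 alone, so that fewer clusters were tested, they were 15, 0, 8, 3, 13, 6, 10, 5 and 27, and with clusters of 1 symbol alone 11, 0, 6, 2, 9, 1, 8, 1 and 26. A variance trend gave 11, 0, 6, 0, 7, 5, 4, 1 and 25. Quantile normalization gave 2 for all Y arrays and 7 for the 6 groups, and median centring 3 for 42Y against 6Y and 20 for the 6 groups. Arrays of the compared groups alone gave 0 in 42Y against 42WKK, 16Y against 6Y and 42Y against 6Y, with fewer arrays behind the spread, and a fit of 2 group means gave 0 for all Y arrays. The ANOVA of the methods gave, before adjustment, 21, 3, 9, 2, 10, 14 and 17 in the first 7, and 0 in each after it. Without the arrays labelled 6K, an alternative chosen after seeing the data, the counts were 2 in 42Y against 42WKK, 1 in 16Y against 6Y and 3 in 42Y against 6Y. The cause of the other changes was not tested.

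The titles 6K, 6Y, 16Y and 42Y share the numbers 1 and 2, which no source describes as a pairing. Deviations of same-numbered arrays correlated at -0.036 to 0.055 over all clusters and at 0.42 to 0.76 over the members. With the number as a replicate block, 9 members passed in 42Y against 42WKK, where Stat3 no longer did (adjusted p = 0.051) and Saa1 (0.015), Saa2 (0.039), Saa3 (0.042), Lcn2 (0.047), Il1rn (0.022) and Steap4 (0.015) did. In 16Y against 6Y the block left 2, Orm3 and Apcs, without C8b and F11. In 42Y against 6Y it gave 7, without F11 and with Saa3, Apcs and Il1rn. It gave 1 in 42Y against 16Y (Steap4), 1 in 42WKK against 6K (Saa1) and 6 for all Y arrays (Orm3, Saa1, Saa2, Orm2, Lcn2 and Serpina3n). Over the 6 groups it gave 12, without C8b, F9, F11, Socs3 and Cebpd and with Saa2, Saa3, Orm2, Lcn2, Il1rn and Steap4.

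With 2 arrays a group, a difference of 1 or less in Saa2, Lcn2 or Orm2 could not be told from the spread. A2m, Il1rn and Cebpd had signals near the median of all clusters.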

Other observations

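Among genes of the wider lists, several differed over the 6 groups in an order of their own. Pros1, the anticoagulant protein S, read 8.39 and 8.39 in 6Y, 8.37 and 8.53 in 16Y and 8.68 and 8.68 in 42Y, against 8.17 and 8.15 in 6K, 8.36 and 8.34 in 42WKK and 7.45 and 7.72 in group 1. All Y arrays lay above every other array, the rise over the others was 0.47 (standard error 0.06, adjusted p = 0.039 by limma), and group 1 was the lowest. Itih1, a heavy chain of the inter-alpha-trypsin inhibitors, fell in 42WKK against 6K (-0.67, standard error 0.09, adjusted p = 0.020), with 8.41 and 8.40 in 42WKK and 9.06 and 9.09 in 6K.

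Vnn1, a liver pantetheinase, fell in 42Y against 16Y (-1.60, standard error 0.25, adjusted p = 0.043), with 4.73 and 5.58 in 42Y and 6.85 and 6.65 in 16Y. Osmr, the receptor chain for oncostatin M, which belongs to the IL-6 family, read 6.79 and 6.46 in 42Y, above the other 10 arrays at 4.66 to 5.87 (adjusted p = 0.046 over the 6 groups). Kng2, a kininogen, was highest in 16Y at 11.28 and 11.36 and lowest in group 1 at 10.35 and 10.56 (adjusted p = 0.039 over the 6 groups). These 5 genes were chosen from the lists by the size of their p, after the values were seen. Their calls were not tried with an array left out or under the other alternatives.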
